A study of Mus musculus with 20 samples.

Results

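The cells described here are B cells whose transcripts carry an IgG constant region, found in single-cell RNA-seq of unselected live cells from 20 spleen and lymph node libraries of transgenic mice, labelled C57BL/6N. A barcode was counted when it held 1500 or more unique molecular identifiers (UMIs, each standing for 1 captured transcript) and 200 or more genes, and when mitochondrial genes gave no more than 10% of its UMIs. It entered the B cell gate with at least 3 UMIs of Cd79a and Cd79b, no UMI of Cd3d, Cd3e or Cd3g and fewer than 20 UMIs of Jchain. An IgG B cell also held at least 3 UMIs of Ighg1, Ighg2b, Ighg2c and Ighg3 together, and more of these than of Ighm. The members were thus chosen by their measured Ighg, Ighm, Cd79, Cd3 and Jchain UMIs, and those values are descriptions only. This rule found 89 IgG B cells among 34057 gated B cells and 97181 barcodes. They were compared with the 31250 gated B cells that held no Ighg UMI, called IgG-zero below; 2718 gated B cells lay between both classes.

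The transgenic lines were sampled when mice met removal criteria, at ages that the labels leave out. The paper reports a longer median survival for Eµ-PRMT5 mice than for Eµ-TCL1 or Eµ-PRMT5/TCL1 mice. The groups may therefore differ in age, and age and genotype cannot be told apart here. Eµ-PRMT5 mice express human PRMT5, an arginine methyltransferase, and Eµ-TCL1 mice express human TCL1, a kinase co-activator that gives a chronic lymphocytic leukemia-like disease. Eµ-PRMT5/TCL1 mice carry both transgenes. Each transgene is driven by an immunoglobulin heavy chain promoter and enhancer, so it is expected in B lineage cells, and no mouse without a transgene was analysed here. Spleens came from 5 mice with PRMT5 alone, 4 with TCL1 alone and 4 with both, and sub-mandibular nodes from 3 with TCL1 alone and 4 with both transgenes; 7 mice gave both tissues. The mouse number of Eµ-PRMT5 spleen 3 is one that the paper lists for a transgenic founder, and the labels do not say whether this mouse is the founder itself. Library totals ran from 9348094 to 72440894 UMIs. Sex, read from X- and Y-linked transcripts, was not balanced: 4 of 5 Eµ-PRMT5 spleens and 1 of 4 Eµ-TCL1 spleens came from females, so sex and genotype cannot be fully told apart between these groups.

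A naive B cell makes IgM and IgD from one rearranged V gene. After activation, the enzyme AID recombines the locus so that the same V region is joined to an IgG, IgA or IgE constant gene further downstream, and the intervening Ighm is lost from that allele. Switched cells can persist as memory B cells, which keep an IgG receptor on the membrane, or become plasmablasts and plasma cells, which secrete large amounts of antibody and lose most B cell identity genes. The leukemic cells of Eµ-TCL1 mice usually make IgM.

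IgG B cells were found mostly in Eµ-PRMT5 spleens, which held 82 of the 89. The 5 Eµ-PRMT5 spleens held 38 of 1869, 22 of 284, 18 of 1746, 3 of 883 and 1 of 462 gated B cells, or 2.03%, 7.75%, 1.03%, 0.340% and 0.216%. All 4 Eµ-TCL1 spleens held 0, of 905, 5533, 1411 and 2625 gated B cells, which allows shares of up to 0.331%, 0.0542%, 0.213% and 0.114%, taking 3 cells as the most that a count of 0 allows. Of the Eµ-PRMT5/TCL1 spleens, 3 held 0 of 5213, 302 and 2595 gated B cells, which allows up to 0.0575%, 0.993% and 0.116%, and the other held 1 of 1492. Among lymph nodes, the 3 of Eµ-TCL1 mice held 0, 0 and 2 members, and the 4 of Eµ-PRMT5/TCL1 mice held 1, 0, 0 and 3. The measured shares of Eµ-PRMT5 spleens did not overlap with those of either other spleen group, but the lowest rests on 1 cell, and at this depth spleens 4 and 5 were not separated from the limits of the smallest libraries at 0.

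The mean share was 2.27% ± 3.14 (SD, n = 5) in Eµ-PRMT5 spleens against 0% in Eµ-TCL1 spleens (n = 4), a difference of 2.27 percentage points (two-sided exact permutation test, p = 0.0159, adjusted p = 0.0397 over 5 comparisons). Against Eµ-PRMT5/TCL1 spleens, whose mean was 0.0168% ± 0.0335 (SD, n = 4), the exact permutation p was again 0.0159, the smallest that 5 against 4 allows, and the adjusted p 0.0397. Both calls were lost when every barcode was thinned to 1500 UMIs (differences of 0.581 and -0.579 points, adjusted p = 0.198) and when only members without Ighm UMIs were counted (adjusted p = 0.595). Without Eµ-PRMT5 spleen 2 the mean difference from Eµ-TCL1 spleens was 0.905 points, and both calls were lost whichever 1 library of the comparison was left out, since the smallest exact permutation p then rises (adjusted p from 0.0714 to 0.0893). Eµ-PRMT5/TCL1 and Eµ-TCL1 spleens differed by 0.0168 points (exact permutation p = 1), the lymph nodes of both lines by 0.0711 points (exact p = 0.571), and the nodes of 7 mice from their own spleens by 0.0619 points (exact sign-flip permutation p = 0.25). Without the Jchain limit this last difference was 0.341 points (exact sign-flip permutation p = 0.0625, adjusted p = 0.104).

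**Figure D1:**
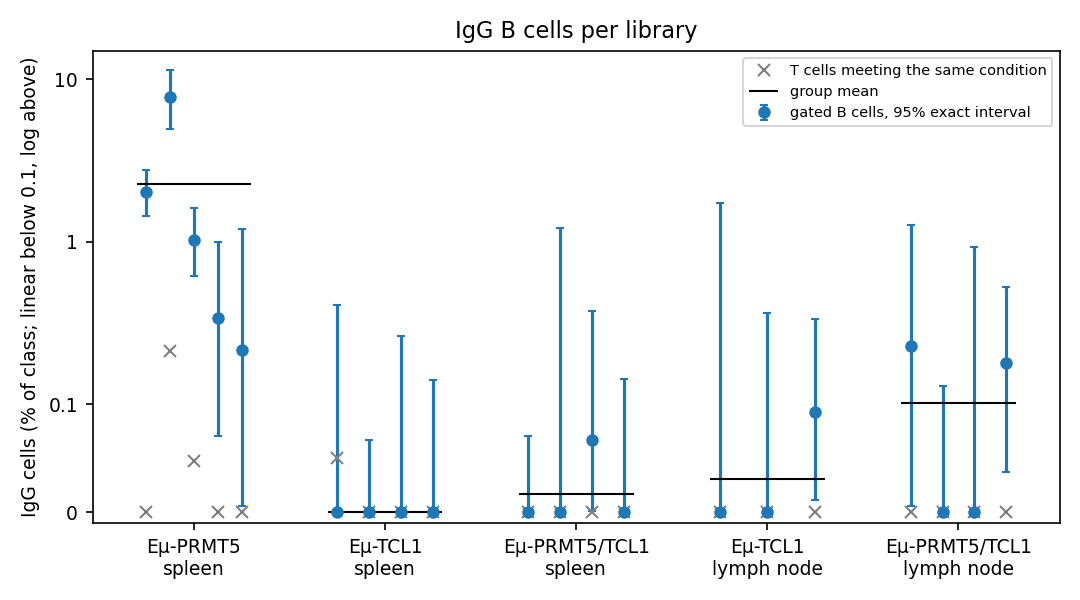
Percentage of gated B cells that met the IgG rule in each library, by group, with 95% exact binomial intervals (blue), the group mean (black line) and the percentage of T cells that met the same Ighg condition (grey crosses). The axis is linear below 0.1% and logarithmic above. The 5 Eµ-PRMT5 spleens lie between 0.216% and 7.75%, above every other spleen, whose highest value is 0.0670%.

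Free RNA in the droplets was gauged with T cells, which make no immunoglobulin. Of 32341 T cells (at least 2 Cd3 UMIs and no Cd79a or Cd79b UMI), 3 met the Ighg condition: 1 of 469 in Eµ-PRMT5 spleen 2, 1 of 2122 in spleen 3 and 1 in Eµ-TCL1 spleen 1. Barcodes with Cd79 UMIs are left out of these T cells, so they do not gauge doublets of B and T cells. T cells that took up free Cd79 RNA are left out as well. The T cell shares of Ighg here, and of V genes below, may therefore understate free RNA from B cells. Barcodes with a Cd3 UMI that otherwise met the rule numbered 22, 2, 3, 0 and 2 in Eµ-PRMT5 spleens 1 to 5. The members there numbered 38, 22, 18, 3 and 1. Whether those barcodes were doublets was not tested. In Eµ-PRMT5 spleen 1, 1.48% of T cells against 8.03% of gated B cells held any Ighg UMI, with median depths of 4372 UMIs in T cells and 4049 in IgG-zero B cells. In spleens 2 and 3 these shares were 0.640% against 17.3% and 0.471% against 18.7%. In Eµ-PRMT5 spleens 4 and 5, with 3 members and 1 member, 0 of 120 and 0 of 4579 T cells met the condition. With only 120 T cells, the 0 of spleen 4 cannot place the background below its member share of 0.340%. The intervals and limits given here cover counting error only.

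The members were of 2 kinds with a gap between them. The Ighg genes gave at most 0.409% of the UMIs in 68 members, called low-Ighg, and at least 1.20% in the other 21, called high-Ighg; no member lay between these values. This division was chosen after the values were seen. Low-Ighg members held 3 to 35 Ighg UMIs with a median of 5, and high-Ighg members 32 to 2014 with a median of 368. Eµ-PRMT5 spleens 1 to 3 held 31, 14 and 16 low-Ighg members and 7, 8 and 2 high-Ighg members. All 3 members of spleen 4 were high-Ighg, so the share of low-Ighg members alone was 0 there and the Eµ-PRMT5 spleens then overlapped with the others (difference from Eµ-TCL1 spleens 1.54 points, exact permutation p = 0.0794, adjusted p = 0.198).

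The B cell label fitted the low-Ighg members and not the high-Ighg members. Ms4a1 (CD20, a B cell surface protein) was seen in 44 of 68 low-Ighg members and 6 of 21 high-Ighg members, and Pax5, the factor that maintains B cell identity, in 20 and 0. Cd74, the class II invariant chain, had a median of 117 UMIs in low-Ighg and 18 in high-Ighg members, and H2-Aa, a class II chain, 28.5 and 0. The antibody secretion genes ran the other way. Xbp1, the factor that drives the secretory program, was seen in 34 of 68 low-Ighg members with at most 5 UMIs and in 20 of 21 high-Ighg members with up to 116. Sdc1 (CD138, a plasma cell surface marker) was seen in 0 and 13 members, and Prdm1, the repressor that defines plasma cells, in 3 and 4. These values describe the division, which Ighg UMIs set, and were not tested.

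**Figure D2:**
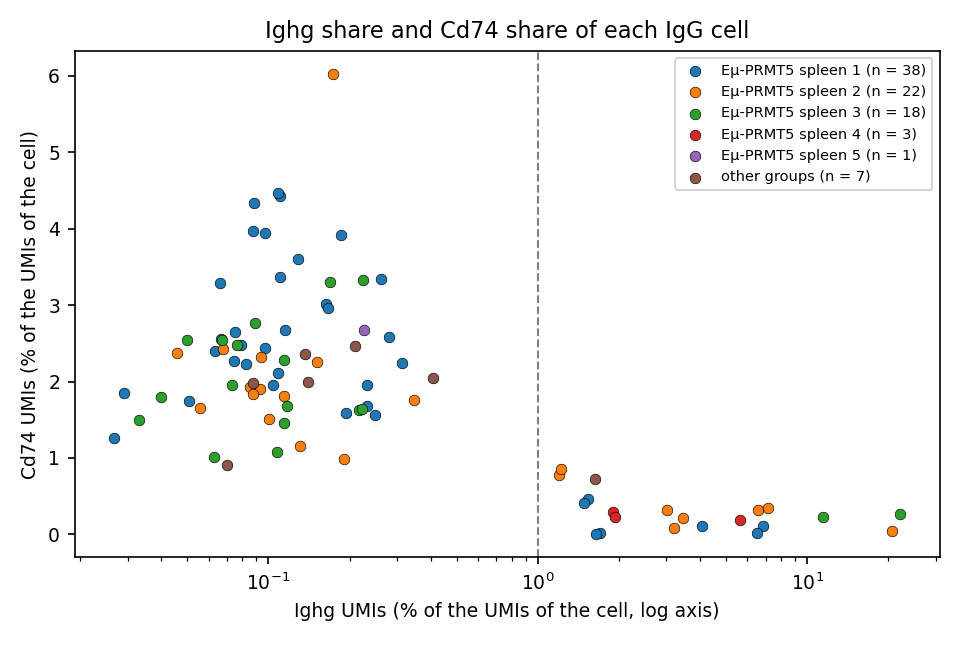
Each of the 89 IgG B cells by the share of its UMIs from the 4 Ighg genes (x axis, logarithmic) and from Cd74 (y axis), colored by library; the dashed line marks 1%. The 68 low-Ighg members lie at or below 0.409% on the x axis and the 21 high-Ighg members at or above 1.20%, with lower Cd74 shares.

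The rule set the cut at 3 Ighg UMIs. 17 members held exactly 3, 61 held fewer than 10, and a further 38 gated B cells held exactly 2 with fewer of Ighm. Ighm was absent from 38 of 68 low-Ighg and 13 of 21 high-Ighg members, and Ighd from 59 and 21. Of the IgG-zero cells of Eµ-PRMT5 spleens 1 to 5, 21.5%, 3.40%, 8.03%, 1.68% and 5.23% held no Ighm UMI, and their median Ighm counts were 2, 8, 4, 9 and 6. Doublets could not be removed reliably, since Scrublet at its own threshold marked 2, 1 and 2 barcodes in Eµ-PRMT5 spleens 1 to 3; of the barcodes with the highest doublet scores, 1 was a member. The barcode of 7 members also passed the limits in another library, against 5623 such barcodes of 91354 distinct ones.

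Ighg2b was the leading constant gene. It gave the most Ighg UMIs in 61 of 89 members, followed by Ighg2c in 16, Ighg3 in 7 and Ighg1 in 3, with 2 ties. In Eµ-PRMT5 spleen 1 Ighg2b led in 30 of 38 members, in spleen 2 in 19 of 22 and in spleen 4 in 3 of 3. Spleen 3 differed, with Ighg2c leading in 8 of 18 and Ighg2b in 6. Ighg1, the usual IgG of T cell-dependent responses to protein, gave 24 UMIs in 6 members and none in the high-Ighg class. The single member of spleen 5 held 11 UMIs, all of Ighg3.

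**Figure D3:**
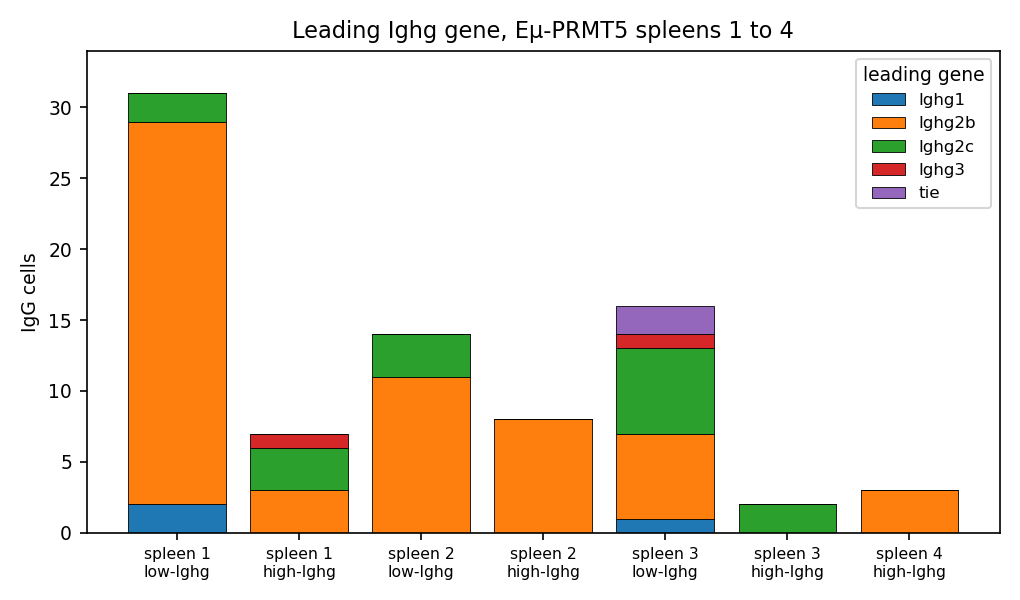
Number of IgG B cells by leading Ighg gene in Eµ-PRMT5 spleens 1 to 4, with low-Ighg and high-Ighg members apart. Ighg2b leads in 27 of 31 and 11 of 14 low-Ighg members of spleens 1 and 2, and in 6 of 16 in spleen 3.

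The 4 genes lie on the minus strand of chromosome 12 of GRCm38 and share part of their sequence in GENCODE vM21. Over all annotated transcripts, 15.05% of the 30-base words of Ighg2c also occurred in Ighg2b, against 1.08% in Ighg1. The annotated membrane transcripts of Ighg1, Ighg2b and Ighg3 continue for 1304, 1352 and 1218 bases beyond the last coding base and that of Ighg2c for 3. The paper describes 3′ libraries, and the annotation the authors counted against may be another version, so whether these lengths moved the counts was not tested. In members of Eµ-PRMT5 spleens 1 to 3, Ighv genes gave 18886, 19146 and 844 UMIs and the Ighg genes 4571, 5131 and 1218. Constant genes may thus be read less fully than V genes, and a cell without an Ighm or Ighg UMI may still express the gene. The reason was not tested.

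Members of both kinds held UMIs of both Ighg2b and Ighg2c. This was so for 13 of 61 low-Ighg members with either gene, of which 7 were in Eµ-PRMT5 spleen 2, and for 6 of 20 high-Ighg members. In the low-Ighg members of that spleen led by Ighg2b there were 91 Ighg2b and 30 Ighg2c UMIs, or 33.0 Ighg2c UMIs per 100 of Ighg2b. Its 8 high-Ighg members, all led by Ighg2b, held 4972 and 9, or 0.181 per 100. In spleen 1 the corresponding values were 2.22 and 0.320 per 100.

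The members outside Eµ-PRMT5 spleens were few and mostly at the cut. The 4 members of Eµ-PRMT5/TCL1 lymph nodes held 3 to 5 Ighg UMIs, led by Ighg3, against 2 to 4 of Ighm. Of these, 3 carried the leading V gene pair of the IgG-zero cells of their node, Ighv1-52/Igkv1-117 in node 1 and Ighv5-9-1/Igkv6-15 in node 4, and the other held its light chain gene. Ighg3 UMIs were common in these nodes: 39.2% of gated B cells of node 4 and 24.2% of node 1 held at least 1, and 107 and 36 cells held 3 or more Ighg UMIs but no more than of Ighm. The member of Eµ-PRMT5/TCL1 spleen 3 held 6 Ighg2b UMIs and none of Ighm. Of the 2 members of Eµ-TCL1 lymph node 3, one was high-Ighg with 143 Ighg2b UMIs and the other held 8 Ighg2b UMIs.

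V gene use gives a second view of the members that the rule did not use. Each cell was given the Ighv gene and the light chain V gene with its most UMIs, a pair that stands for a possible clone but holds no junction sequence, so cells of one pair need not share an ancestor. In Eµ-PRMT5 spleen 2 the leading pair of IgG-zero cells was Ighv7-3/Igkv6-32, in 141 of 218 cells with a pair, and 0 of 21 members carried it. Instead 11 of 21 members carried Ighv5-9-1/Igkv17-127, which 0 of 218 IgG-zero cells did. In T cells of spleen 2, Ighv5-9-1 was seen in 0.853% and Igkv17-127 in 3.62%, with at most 1 UMI per cell. There, 1 T cell had both as leading genes. In spleen 4 all 813 IgG-zero cells with a pair carried Ighv12-3/Igkv3-7, and all 3 members carried Ighv5-6/Igkv5-39. In spleen 1 the members and the IgG-zero cells had the same leading pair, Ighv6-6/Igkv3-2, in 11 of 34 and 100 of 1379 cells. These 11 members held 1 to 12 Ighv6-6 and 13 to 116 Igkv3-2 UMIs. In T cells of spleen 1, Igkv3-2 was seen in 19.5%, with at most 10 UMIs per cell. Ighv6-6 was seen in 0.771% of them, with up to 590. In spleen 3 the members were diverse, with 11 pairs among 13 cells. In Eµ-PRMT5 spleens 1 to 5 the leading pair held 7.25%, 64.7%, 41.6%, 100% and 74.4% of IgG-zero cells with a pair. In Eµ-TCL1 spleens 1 to 4 it held 99.3%, 87.0%, 47.0% and 52.2%. In Eµ-PRMT5/TCL1 spleens 1 to 4 it held 81.7%, 93.75%, 94.1% and 90.9%. Whether the size of the leading pair moved the share of IgG B cells was not tested.

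The pair Ighv5-6/Igkv5-39 was carried by IgG members of 3 mice: 8 of 34 in Eµ-PRMT5 spleen 1, 4 of 21 in spleen 2 and 3 of 3 in spleen 4. It was carried by 4 of 1379, 1 of 218 and 0 of 813 IgG-zero cells. Ighg2b led in 7 of the 8, in all 4 and in all 3 of these members. 4, 3 and 3 of them were high-Ighg, with up to 4804 Ighv5-6 UMIs in 1 cell. Free RNA carried these genes as well: in spleen 1, 2.95% of T cells held an Ighv5-6 UMI, at most 4 per cell, and 7 T cells had both as leading genes. 1 T cell of Eµ-TCL1 spleen 1, a library with no member, also had both. In spleen 4 none of 120 T cells and no IgG-zero cell held either gene. The 4 low-Ighg members of this pair in spleen 1 held 3 to 42 Ighv5-6 UMIs, so the lowest lies in the range of the T cells, and the member with 42 was the one with a high doublet score. The barcode of 1 of the 15 also passed the limits in another library.

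Ighv5-6 (chr12:113625506-113625956) and Ighv5-9-1 (chr12:113736111-113736630), the heavy chain genes of the pairs that led in members of spleens 4 and 2, belong to one V family and were identical at 94.5% of the 307 bases of their V exon. Because reads could be split between them, the 30 bases in which they differ most are shown, on the minus strand of GRCm38, with the differing bases in capitals.
Ighv5-6, chr12:113625629-113625658: cgcaACcattagtagtggtggtAGttacaC
Ighv5-9-1, chr12:113736234-113736263: cgcaTAcattagtagtggtggtGAttacaT
Their light chain partners, Igkv5-39 and Igkv17-127 on chromosome 6, belong to different families, which keeps both pairs apart.

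**Figure D4:**
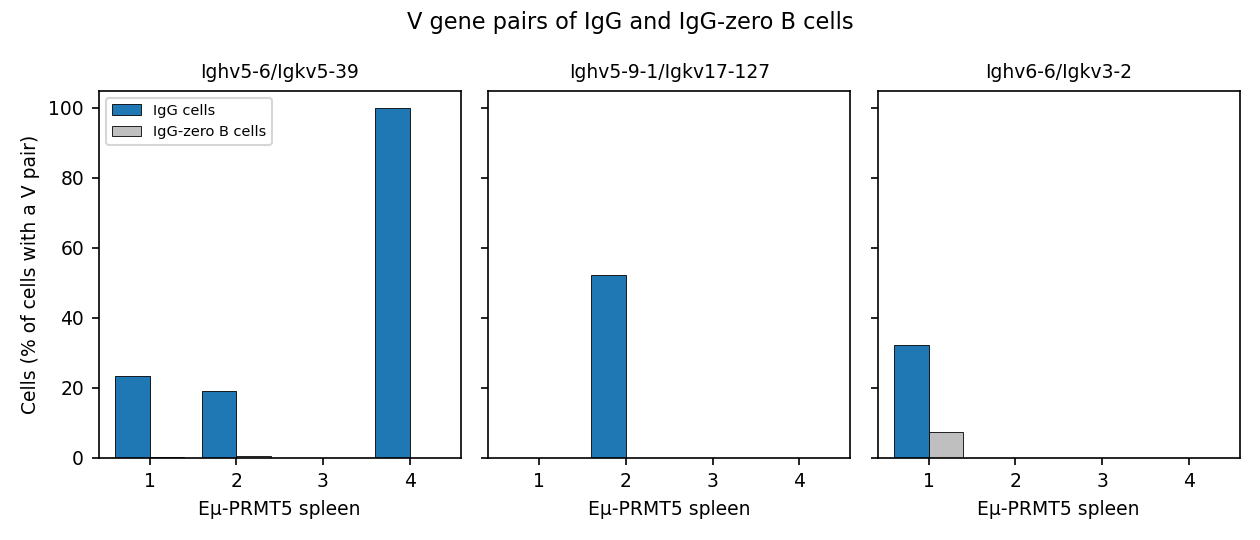
Percentage of IgG B cells (blue) and IgG-zero B cells (grey) with a V pair that carried each of 3 pairs in Eµ-PRMT5 spleens 1 to 4. Ighv5-6/Igkv5-39 is carried by 23.5%, 19.05% and 100% of members of spleens 1, 2 and 4 and by at most 0.459% of their IgG-zero cells.

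Measured in UMIs rather than cells, the leading Ighv gene of IgG-zero cells gave a smaller share in members of both spleens with at least 20 members. The leading genes were picked as the largest in IgG-zero cells, so the choice itself favored a lower share in members. In spleen 1 the size of the difference rested on the 7 high-Ighg members, which hold most of the V gene UMIs. Ighv9-3 gave 13.4% of Ighv UMIs in IgG-zero cells of Eµ-PRMT5 spleen 1 and 0.106% in members, but 7.35% in its low-Ighg members alone. Ighv7-3 gave 81.1% and 0% in spleen 2, with 0% in low-Ighg members too. The leading Igkv gene of spleen 1, Igkv3-2, went from 9.75% in IgG-zero cells to 1.41% in all members and to 48.8% in low-Ighg members, the opposite direction. In spleen 2 Igkv6-32 went from 64.3% to 0.127% and 1.77%. Over all members the mean difference was -47.2 points for the leading Ighv gene and -36.3 points for the leading Igkv gene, each with an exact sign-flip permutation p of 0.5, the smallest that 2 spleens allow. The chance that 2 cells share their Ighv gene was 2.47% in IgG-zero cells and 20.7% in members of spleen 1, but 42.1% and 36.2% in spleen 2, so the direction differed between these spleens.

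IgG and IgG-zero B cells were compared across genes in Eµ-PRMT5 spleens 1 and 2, the libraries with at least 20 members. UMIs were summed per class and spleen and fitted with edgeR (quasi-likelihood F test, library as block, Benjamini-Hochberg adjustment), leaving out the genes of the rule. 69 of 7783 genes passed an adjusted p of 0.05 (0.887%), 54 higher (0.694%) and 15 lower (0.193%) in members; 49 of the 69 were not immunoglobulin genes. With spleen 3 added (at least 10 members each), 26 of 7837 genes passed (0.332%), 12 higher (0.153%) and 14 lower (0.179%). The 2-spleen fit rests on 4 sums with 1 residual degree of freedom. Without the library block edgeR called 0 genes, with 483 at an unadjusted p under 0.05. DESeq2 with the block called 142.

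Genes of antibody secretion were among those higher in members. Of 14 genes listed for plasmablasts and plasma cells, 13 were tested, 9 rose and 0 fell, with a median log2 difference of 2.38 against -0.04 over all genes tested. Xbp1 rose by 4.04 log2 units (SE 0.29, edgeR adjusted p = 0.00119), from 83.2 to 1032 CPM (UMIs scaled to a common library total) over both spleens. Derl3, which retrieves misfolded proteins from the endoplasmic reticulum, rose by 5.20 (SE 0.58, edgeR adjusted p = 0.00644). Fkbp11, a chaperone of secretory cells, rose by 4.53, Sdc1 by 4.26 and Mzb1, a cofactor of antibody assembly, by 2.38. Prdm1 and Irf4, both regulators of this program, differed by 0.91 and -0.74 and did not pass. Igkc, the kappa constant gene, rose by 3.94 and Igha, the IgA constant gene, by 4.24 with 47 UMIs in 15 of 60 members. With spleen 3 added, Derl3 still passed (edgeR adjusted p = 0.0278), and Xbp1, Fkbp11, Sdc1, Mzb1 and Igha did not.

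Outside the lists, Slpi, a secreted protease inhibitor, stood at 6208 CPM in members and 18.5 in IgG-zero cells, a log2 difference of 7.49. Its UMIs came from few cells: 1 cell gave 52.1% of them in spleen 1 and 78.8% in spleen 2. Chst1 and Spon1 had 31 and 21 UMIs in members and 0 in IgG-zero cells, at least 195-fold and 132-fold higher against a floor of 3 UMIs over both spleens. These UMIs came from 12 and 6 of 60 members. Both genes passed the filter on low counts only through the members, where they are high, so these folds are descriptions. Tmem176a and Tmem176b, a pair of neighboring membrane protein genes, differed by 6.01 and 5.26. Prg2, Pon3, Oosp1, Ly6c2 and Impa2 differed by 4.19 to 6.64, and Cox4i2, with 1 UMI in IgG-zero cells and 14 in 7 of 60 members, by 8.25. With spleen 3 added, Slpi, Tmem176a, Ly6c2 and Cox4i2 still passed, and the other genes of this paragraph did not.

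The secretion genes did not pass in low-Ighg members. With high-Ighg members left out and spleen 3 added (at least 10 members each), 0 of 10 tested plasma cell genes passed and the list median was 0.17. In all, 19 of 7845 genes passed (0.242%), 1 higher (0.0127%) and 18 lower (0.229%). Outside immunoglobulin genes 0 were higher and 8 lower. These 8 were Chil3 and Lyz2, Lcn2, Ltf, Camp, Ngp, S100a8 and S100a9, the neutrophil genes treated below. Slpi, Chst1, Spon1 and the other genes named outside the lists were thus not called higher in low-Ighg members. The filter on low counts was applied anew in this fit, so some of these genes may not have been tested in it. Before the high-Ighg members were left out, 2 of 13 had risen over the 3 spleens, with a median of 1.56. This fit was chosen after the values were seen. Xbp1 differed by 0.81 (SE 0.29, edgeR adjusted p = 0.889) and Mzb1 by 0.46. Xbp1 stood at 173, 192 and 193 CPM in low-Ighg members of spleens 1 to 3, at 1977, 2441 and 1440 CPM in high-Ighg members and at 83.3, 82.9 and 151 CPM in IgG-zero cells.

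Of 10 genes of naive follicular B cells, none passed in the fit of all members of spleens 1 and 2. Their median log2 difference was -1.39 against -0.04 over all genes tested, and 9 of 10 were below 0, as were 53.1% of all genes tested. In the separate fit of low-Ighg members of 3 spleens, 1 of the 10 passed. Ighd, the IgD constant gene that switched cells lose, fell by 2.85 log2 units (SE 0.50, edgeR adjusted p = 0.0478). The rule held Ighm below Ighg in members and set no Ighm limit for IgG-zero cells. Since IgM and IgD are made from one rearranged V gene, the rule may have favored this fall. It is therefore no separate test of switching. Ighd stood at 55.5, 0 and 29.7 CPM in low-Ighg members and at 209, 148 and 208 CPM in IgG-zero cells of spleens 1 to 3, with no overlap. Fcer2a (CD23, of follicular B cells) differed by -2.22 and did not pass (edgeR adjusted p = 0.428).

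Of 10 genes of class-switched and memory B cells, 0 passed in any of the 3 fits. In all members of spleens 1 and 2 their median was 0.75, with 9 of 10 above 0 against 46.9% of all genes tested. In low-Ighg members of 3 spleens the median was 0.41 against -0.06 over all genes, with 9 of 10 above 0 against 44.5%. Cd80, a costimulatory ligand of memory B cells, stood at 129, 56.9 and 104 CPM in low-Ighg members of spleens 1 to 3 and at 13.5, 38.5 and 72.3 CPM in IgG-zero cells, a log2 difference of 1.501 (SE 0.52, edgeR adjusted p = 0.842). Nt5e (CD73, another memory marker) was at 166, 114 and 74.2 against 20.6, 70.0 and 143 CPM, so spleen 3 ran against the other two. After thinning each cell to 1500 UMIs, Cd80 was expected in 11.2% of members and 2.37% of IgG-zero cells of spleens 1 and 2, against 35% and 6.76% unthinned. These shares pool both spleens and include high-Ighg members. Of the 1954 pooled IgG-zero cells, 1719 came from spleen 1, so the mix of spleens differs between the classes. IgG-zero cells were not shown to be unswitched, since 21.5%, 3.40% and 8.03% of them in spleens 1 to 3 held no Ighm UMI. Whether switched cells among them moved these memory gene differences was not tested.

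**Figure D5:**
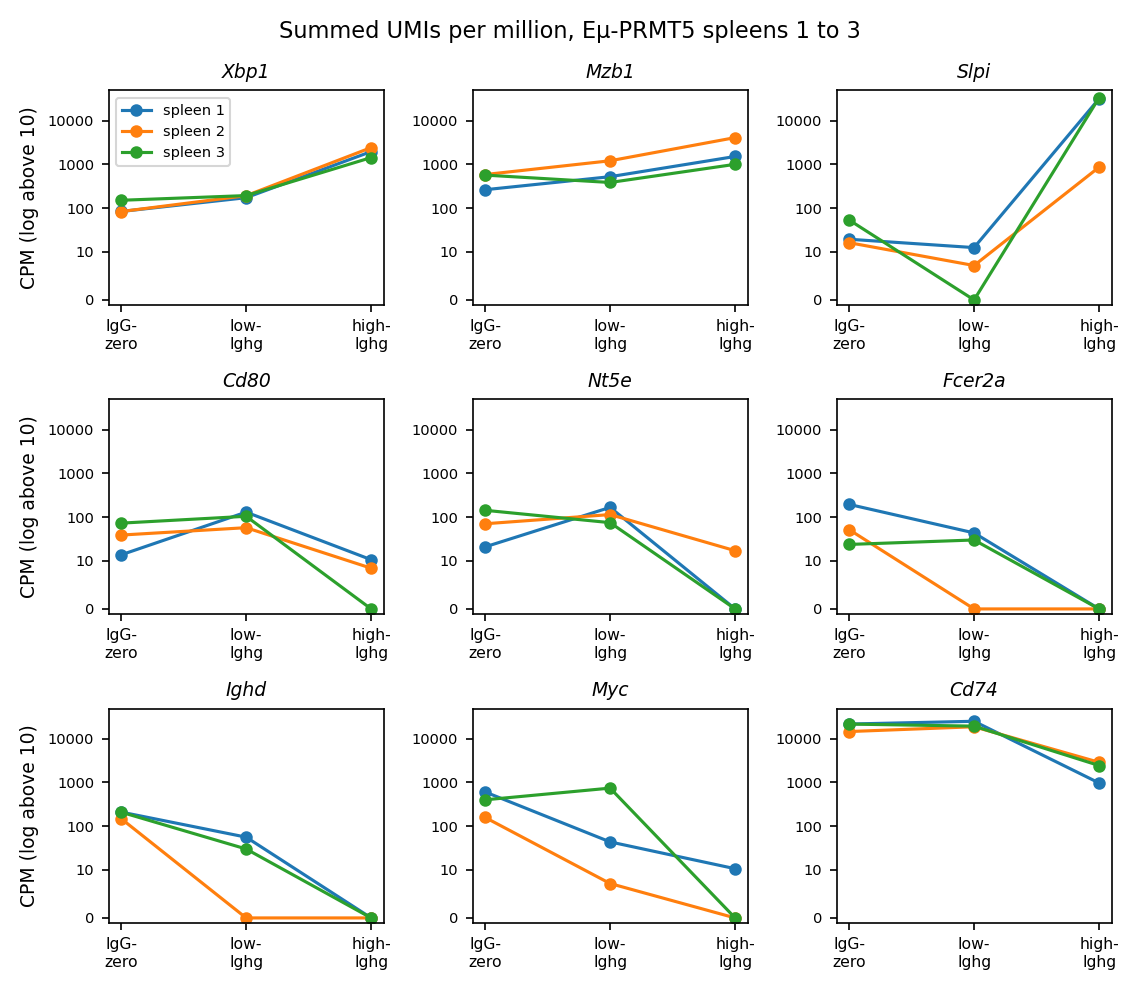
Summed UMIs (CPM) of 9 genes in IgG-zero B cells, low-Ighg members and high-Ighg members of Eµ-PRMT5 spleens 1 to 3; the axis is linear below 10 CPM and logarithmic above. Xbp1 is highest in high-Ighg members of each spleen, and Fcer2a and Ighd are 0 there.

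Myc, which drives growth, fell by 4.09 log2 units in members of spleens 1 and 2 (SE 0.42, edgeR adjusted p = 0.00504), from 606 to 31.03 CPM and from 157 to 3.85 CPM. In spleen 3 it ran the other way, at 673 CPM in members and 400 CPM in IgG-zero cells, where 1 member held 34 of the 50 UMIs. Myc was the only one of 12 tested activation and immediate early genes that passed in spleens 1 and 2. With spleen 3 added, 0 of the 12 passed.

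Neutrophil genes were also lower in members, but through very few IgG-zero cells. The log2 differences were -5.58 for S100a8, -4.99 for S100a9, -6.17 for Lyz2 and -7.05 for Camp. Ngp, Lcn2 and Ltf had no UMI in members and were at least 60.9-fold, 15.9-fold and 9.30-fold lower against the floor of 3 UMIs. Yet S100a8 was seen in 3.22% of IgG-zero cells (63 of 1954) and 3.33% of members (2 of 60), and 1 IgG-zero cell held 37.2% of its UMIs in spleen 1 and another 49.2% in spleen 2. In the myeloid list 4 genes fell and 2, Fcer1g and Cst3, rose. The 4 defining myeloid markers summed to 469, 335 and 363 CPM in members and to 1266, 3877 and 2425 CPM in IgG-zero cells of spleens 1 to 3, with Lyz2 at 0 in members of spleens 1 and 3. The 5 T cell markers summed to 0, 7.71 and 0 CPM in members and to between 2.58 and 9.41 CPM in IgG-zero cells, with Cd3d, Cd3e and Cd3g at 0 by the gate; no NK marker was seen in members, and of the erythroid markers only Hbb-bs, with 1 UMI.

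Of the other lists, none had a gene that passed in the fit of spleens 1 and 2. The list medians were -0.05 for the 10 MHC class II genes, -0.24 for 12 B cell identity factors, -0.18 for 18 genes of B cell receptor signalling, 0.48 for 8 tested B1 and leukemia-associated genes and -0.87 for 6 tested marginal zone genes. Germinal centre genes were mostly too low, with 2 of 10 tested, and so were cell cycle genes, with 5 of 12.

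IgG transcripts also lay outside the gate. Of the barcodes that met the Ighg condition, 48 in Eµ-PRMT5 spleens were outside the gate, 8 of them with at least 20 Jchain UMIs, 11 with fewer than 3 Cd79 UMIs and 29 with a Cd3 UMI. In Eµ-TCL1 lymph nodes 12 lay outside, 10 of them through Jchain, against 2 members. Counted over all barcodes with no B gate, the mean share that met the condition was 0.977% in Eµ-PRMT5, 0.0340% in Eµ-TCL1 and 0.00997% in Eµ-PRMT5/TCL1 spleens. Eµ-PRMT5 spleen 5, at 0.0502%, lay below Eµ-TCL1 spleen 3, at 0.120%. Neither difference of Eµ-PRMT5 spleens was called (exact permutation test, adjusted p = 0.104 against Eµ-TCL1 and 0.0794 against Eµ-PRMT5/TCL1 spleens).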

How the data were processed

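Single-cell 3′ RNA-seq libraries were made by the authors from unselected live cells and deposited as gene-by-barcode tables of UMI counts, unnormalized and whole. The submitters' processing notes name Cell Ranger 2.0.1, Seurat 2.2.1 and GRCm38, and the matrix headers name a later Cell Ranger version; no filtered cell list or annotation was used. Groups came from the sample labels. Members and gene lists were chosen with earlier results of these data known. Shares per library were compared with exact permutation tests (scipy 1.17.1, Python 3.11.15). UMIs summed per class and library were tested with edgeR 4.0.16 (TMM, filterByExpr, R 4.3.3), with DESeq2 1.42.0 as an alternative. The fit was tested on simulated data with 200 changed genes: for the 2 spleens, 85.3% of 4-fold and 17.3% of 2-fold changes were called. Of 7349 unchanged genes, 7 were called. The simulated sums used a common dispersion and no single cells. These rates thus do not cover genes whose UMIs come from few cells. Named genes were list members by count, with up to 5 that passed, and the 15 with the largest log2 change in each direction among genes outside immunoglobulins that passed, kept 1 direction in each spleen and reached 20 CPM. Doublet scores came from Scrublet in scanpy 1.11.5. The nodes, the genotype comparisons within IgG cells and the Ighg1 comparison had too few libraries with 20 members to be fitted. Replicates are different mice, and replicate numbers do not mark shared mice across groups. Some genes and sequences are not reported here.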

Additional observations from a re-analysis of the deposited data

Results flagged for a closer look

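Dixon's test was applied to 23 groups of library values, of which chance marks about 1 in 20. The share of IgG B cells in Eµ-PRMT5 spleen 2 stood apart from the other 4, at 7.75%. Eµ-PRMT5/TCL1 spleen 3 stood apart at 0.0670%, which is 1 cell. In Eµ-PRMT5/TCL1 lymph node 1, 1% of T cells held an Ighg UMI, above the other 3 nodes, which is 1 of 100 cells. The median depth of IgG-zero cells stood apart at 16161 UMIs in Eµ-PRMT5 spleen 4 and at 9005 UMIs in Eµ-PRMT5/TCL1 lymph node 1.

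Barcodes outside the B cell gate met the Ighg condition in libraries with few or no members. There were 6 in Eµ-TCL1 spleen 3, 3 in Eµ-TCL1 lymph node 1, 9 in Eµ-TCL1 lymph node 3, 3 in Eµ-PRMT5/TCL1 lymph node 3 and 6 in Eµ-PRMT5/TCL1 lymph node 4.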

How the results depend on the processing

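In percentage points, Eµ-PRMT5 spleens differed by 2.27 from those with TCL1 alone, and double transgenic spleens by -2.26 from Eµ-PRMT5; both kept their direction in every alternative run but were no longer called with thinned barcodes (0.581 and -0.579), per all barcodes (0.683 and -0.678), without high-Ighg members (1.54 and -1.53), with members at 0 Ighm (1.65 and -1.64) or without a B gate (0.943 and -0.967). They stayed called but moved to 1.14 and -1.14 at 10 Ighg UMIs and to 24.6 and -24.6 of B cells without the leading Ighv gene, where spleen 4 is 3 of 3 cells. The other Eµ-PRMT5 spleens were then at 2.13%, 18.6%, 1.23% and 0.870%. The zeros rested on 7, 73, 931 and 34 cells in Eµ-TCL1 spleens 1 to 4. In double transgenic spleens 1 to 4 they rested on 870, 12, 70 and 230. By the limit of 3 cells these zeros allow up to 42.9% in Eµ-TCL1 spleen 1 and 25% in double transgenic spleen 2. Leaving out 1 library gave 0.905 to 2.79 and -2.77 to -0.888. With a replicate block over 4 shared numbers, where 0.125 is the smallest p, they were 2.79 and -2.77; the numbers do not mark shared mice. The difference of double transgenic from TCL1 spleens, never called, turned to -0.00974 without the Jchain limit and -0.0240 without the B gate. That between nodes turned to -0.0155 at 10 Ighg UMIs, -0.0111 thinned, -0.212 without the Jchain limit, -0.0309 at 0 Ighm, -3.03 of B cells without the leading Ighv gene and -0.0294 without the B gate. The difference of nodes from their own spleens, 0.0619 and never called, was 0.00662 at 10 Ighg UMIs, 0.341 without the Jchain limit, 0.00367 at 0 Ighm and 1.30 without the leading Ighv gene, and p was 0.0625 (exact permutation) without the B gate. The Ighv concentration difference of 6.16 turned to -1.86 with 3 spleens and -0.126 when high-Ighg members were also left out, and ran from -5.89 to 18.2 with 1 spleen left out. The cause was not tested.

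Genes called, with those higher and lower, were 69, 54 and 15, and became 38 and 28 higher with RLE; 142, 119 and 23 with DESeq2; 250, 163 and 87 without a filter; 0, 0 and 0 with no replicate block; 26 and 12 higher with 3 spleens; 30, 23 and 7 without immunoglobulin genes; 118 and 101 higher at 10 Ighg UMIs; 25, 17 and 8 against IgG-zero cells with 3 Ighm UMIs; 18 and 7 higher at 0 Jchain; and 19 and 1 higher with 3 spleens and no high-Ighg members, which changes 2 choices at once. Without members over 5% Ighg, 35 were higher. The split moved from 78.3% higher to 38.9% at 0 Jchain, 46.2% with 3 spleens and 5.26% with 3 spleens and no high-Ighg members, where Slpi (-1.67), Ly6c2 (-0.17), Creld2 (-0.022) and Igkc (-0.53) turned. Of 410 values of 32 named genes, 277 kept their call and direction, 129 lost the call and 4 turned. At 10 Ighg UMIs the median log2 difference of all genes was -0.32. A single spleen left no residual degree of freedom, and no library had 50 members, so those gene fits were not run. The alternatives with high-Ighg members left out, no Jchain limit, 0 Ighm, no leading Ighv gene, no B gate, highest doublet scores, and 3 spleens for V genes were chosen after seeing the data. Depth limits the low-Ighg members: 61 of the 89 members hold 3 to 9 Ighg UMIs.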
